A study of Mus musculus with 9 samples.

Results

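The protein-coding genes named as ribosomal proteins were followed in the cerebral cortex of 3 inbred mouse strains. A gene was taken when it was annotated as protein-coding and its symbol began with Rpl or Rps and a digit, or was Rplp0, Rplp1, Rplp2 or Rpsa. Ribosomal S6 kinases were left out, as was 1 gene that lies in an excluded segment of chromosome 8. This gave 93 genes of the 54532 in the deposited table. They comprised 45 genes of the large (60S) subunit, 31 of the small (40S) subunit, 9 paralogs and related names, and 8 coding genes whose symbol is that of a pseudogene. The groups were adult male mice of the strains C57BL6/J (B6), C3H/HeJ (C3H) and WSB/EiJ (WSB), aged 8 to 12 weeks, with 3 mice in each. The mouse reference genome was made from B6. Like B6, C3H is a classical inbred strain, whereas WSB descends from wild mice. The study compared the strains to look for genes whose expression differs in cortex, since they differ in the size of the infarct after an experimental stroke.

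Ribosomal proteins assemble with ribosomal RNA into the small subunit, which decodes the mRNA, and the large subunit, which joins the amino acids. Their genes are highly expressed in nearly every cell, and their mRNAs begin with an oligopyrimidine tract through which the kinase complex mTORC1 controls their translation. Mammalian genomes also hold many processed pseudogenes of them, which arose by reverse transcription of the mRNA and are often nearly identical to it.

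Expression was given as FPKM, that is, fragments for each kilobase of a gene with a correction for library size. Between 16317439 and 21562429 reads lay on genes per library, and 1.40% to 1.83% of them lay on the 93 genes. Strains were compared in pairs by limma on log2(FPKM + 0.1). A gene was tested if it averaged 0.1 FPKM or more over the 6 mice, and was called at a Benjamini-Hochberg adjusted p under 0.05. Differences below are on this log2 scale, with their standard error (SE). Markers of excitatory neurons were present in every library, with a summed level of 1946 to 2670 FPKM over 7 genes. Markers of choroid plexus ranged widely within B6 (65.2 to 768 FPKM over 7 genes) and C3H (92.5 to 661), as did those of striatum (183 to 747 in B6). In tissue RNA, fewer cells of a type and less RNA per cell cannot be told apart.

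All 76 genes of the subunits were expressed in every strain. Their mean over the 9 mice ran from 0.818 to 971 FPKM, with a median of 101 FPKM for the large subunit and 118 FPKM for the small subunit. Rplp1, a protein of the stalk that recruits translation factors, had the highest level per kilobase of gene length, with 743, 837 and 842 FPKM in the B6 mice, 1281, 995.4 and 1124 FPKM in C3H and 923, 1099 and 899 FPKM in WSB. The next were Rps15 (669 FPKM), which lies near the decoding center, Rpl17 (423 FPKM), at the peptide exit tunnel, Rps21 (353 FPKM) and Rpl41 (318 FPKM), the smallest ribosomal protein. Rps15 ranged from 519 to 613 FPKM in B6 mice, from 728 to 866 in C3H mice and from 532 to 687 in WSB mice. The C3H mice lay above all B6 mice for Rplp1, Rps15, Rpl17 and Rps21, though none of the 5 passed the test in any comparison. This held for 48.9% of the 88 ribosomal protein genes tested and for 14.9% of all genes tested. Deposited levels were divided by the length of all annotated exons of a gene, which can far exceed that of the mRNA. Rps24, with a gene length of 6256 bases and a principal transcript of 519 bases, had a mean of 36.1 FPKM per gene length and 435 per kilobase of that transcript. On the latter scale the median over the 76 genes was 263.

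**Figure D1:**
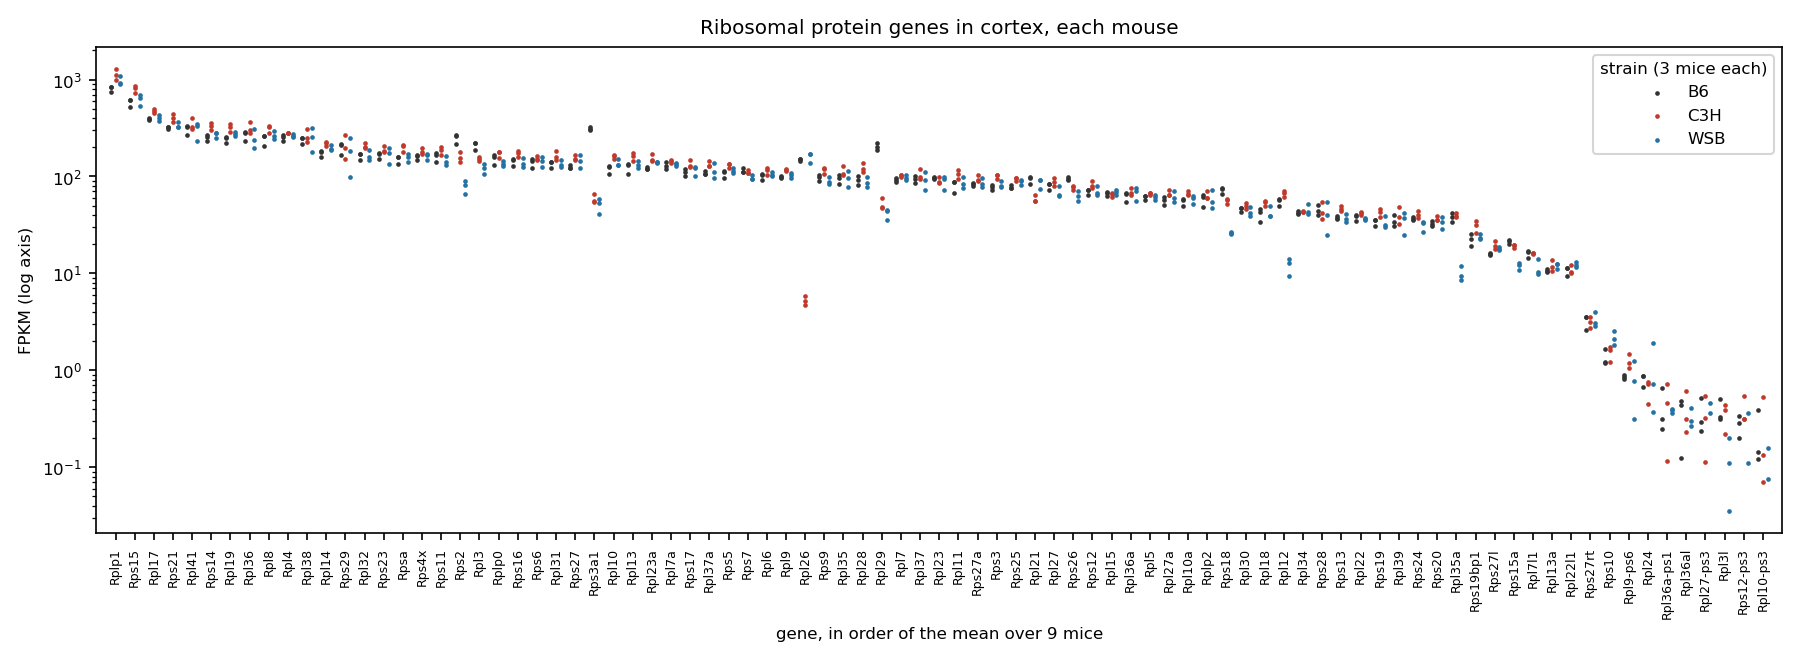
FPKM (log axis) of 87 of the 88 ribosomal protein genes that averaged 0.1 FPKM or more, 1 point per mouse, with genes in the order of their mean over 9 mice. Most subunit genes lie in a continuous band, while Rpl26 falls to about 5 FPKM in C3H alone, and Rpl13a, Rps10 and Rpl24 lie under the band in all strains.

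The lowest levels in a subunit were those of Rpl24, Rps10 and Rpl13a. Rpl24, which helps to bridge the subunits, had 0.372 to 1.93 FPKM over the 9 mice, with a mean of 0.818. Rps10, a protein of the 40S head, had a mean of 1.69 FPKM, and Rpl13a, which is often used as a reference gene in quantitative PCR, had a mean of 11.6. In these 3 genes, 71.5% (Rpl24), 53.6% (Rps10) and 59.3% (Rpl13a) of the bases of the principal transcript lay in an exon of another annotated gene on the same strand (Gm28037, RPS10-NUDT3 and Gm45713). No other subunit gene had more than 50% of its bases in such an exon, and the other 73 had means from 17.5 to 971 FPKM. Rpl23a, Rpl35 and Rpl5 had over 40% of their bases in an exon on the opposite strand and kept means of 138, 101 and 62.8 FPKM. The part of overlap in these levels was not tested.

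Paralogs had lower levels than most subunit genes. Rps19bp1, which binds Rps19 and is not a subunit, had a mean of 25.6 FPKM, Rps27l had 17.8, Rpl7l1 had 14.5 and Rpl22l1 had 11.3, against 38.7 for Rpl22. Rps27rt, a retrogene of Rps27, had 3.25 FPKM. Rpl36al had 0.353 FPKM, with 63.1% of its transcript inside an exon of another gene on the same strand, and Rpl3l, known from striated muscle, had 0.284 FPKM. Rpl10l, a testis retrogene, had 0 reads in every library, and Rpl39l had 1 read in 1 library. None of the 7 tested passed in any comparison. Rpl7l1 had 14.4, 16.6 and 16.9 FPKM in B6 and 9.82, 14 and 10.4 in WSB, a difference of -0.49 (SE 0.14, adjusted p = 0.10). Of the 8 coding genes named as pseudogenes, 5 had means of 0.1 FPKM or more, from Rpl9-ps6 at 0.959 FPKM to Rpl27-ps3 at 0.318, Rps12-ps3 at 0.275 and Rpl10-ps3 at 0.181. None of these 5 passed in any comparison. Rpl9-ps1 and Rpl36-ps4 had 0 reads and Rpl13a-ps1 had reads in a single library. The remaining 88 of the 93 genes were tested in each comparison.

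In WSB, 9 of 88 ribosomal protein genes fell relative to B6 and 0 rose. This is 10.2% of the 88 genes, while 5.9% of the 20746 genes tested were called, 3.09% being lower and 2.81% higher. The 4 large subunit genes were Rpl29, Rpl12, Rpl35a and Rpl3, and the 5 small subunit genes were Rps3a1, Rps2, Rps18, Rps15a and Rps26. The median difference of the 88 genes was 0.02, and 49 lay above 0, against a median of 0.00 over all genes. In 14 genes every WSB mouse lay below every B6 mouse (15.9%, with 13.1% over all genes), and in 8 every WSB mouse lay above (9.09%, with 13% over all genes).

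Among the large subunit genes, Rpl29 had 189, 220 and 203 FPKM in B6 and 44.5, 45.5 and 35.5 in WSB, 4.88-fold lower (-2.29, SE 0.11, adjusted p = 3.6e-05). Rpl12, which sits at the base of the stalk, had 50.1, 57.7 and 58.7 FPKM in B6 and 12.9, 14.2 and 9.46 in WSB, 4.58-fold lower (-2.20, SE 0.15, adjusted p = 0.00023). Every WSB mouse lay far under the B6 range for both genes. Rpl35a, mutated in some patients with Diamond-Blackfan anemia, had 34.2, 42.3 and 38.4 FPKM in B6 and 8.58, 12 and 9.35 in WSB, 3.84-fold lower (-1.94, SE 0.14, adjusted p = 0.00025). Rpl3, which lies close to the catalytic center, had 189, 222 and 224 FPKM in B6 and 121, 134 and 107 in WSB (-0.81, SE 0.11, adjusted p = 0.0061). Each of these calls remained in all 22 alternative analyses.

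Among the small subunit genes, Rps3a1 had the widest gap, with 299, 308 and 327 FPKM in B6 and 53.6, 58.5 and 41.3 in WSB, 6.14-fold lower (-2.62, SE 0.13, adjusted p = 3.7e-05). Rps2 had 217, 260 and 265 FPKM in B6 and 82.2, 88.7 and 65.2 in WSB (-1.66, SE 0.13, adjusted p = 0.00049). Rps18, a protein of the 40S head and a common PCR reference, had 65.8, 76.0 and 74.2 FPKM in B6 and 26.1, 25.5 and 27 in WSB, 2.74-fold lower (-1.45, SE 0.07, adjusted p = 4.9e-05). The 3 WSB mice were close to each other for Rps18 and under all B6 mice. Rps15a had 21.3 ± 1.23 FPKM (SD, n = 3) in B6 and 11.9 ± 0.973 in WSB (-0.83, SE 0.09, adjusted p = 0.0018). Rps26, which lies where the mRNA leaves the ribosome, had 91.1, 99.1 and 93.3 FPKM in B6 and 62.7, 71.3 and 56.3 in WSB (-0.58, SE 0.10, adjusted p = 0.014). The call of Rps26 was lost when B6 replicate 2, B6 replicate 3 or WSB replicate 1 was left out.

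**Figure D2:**
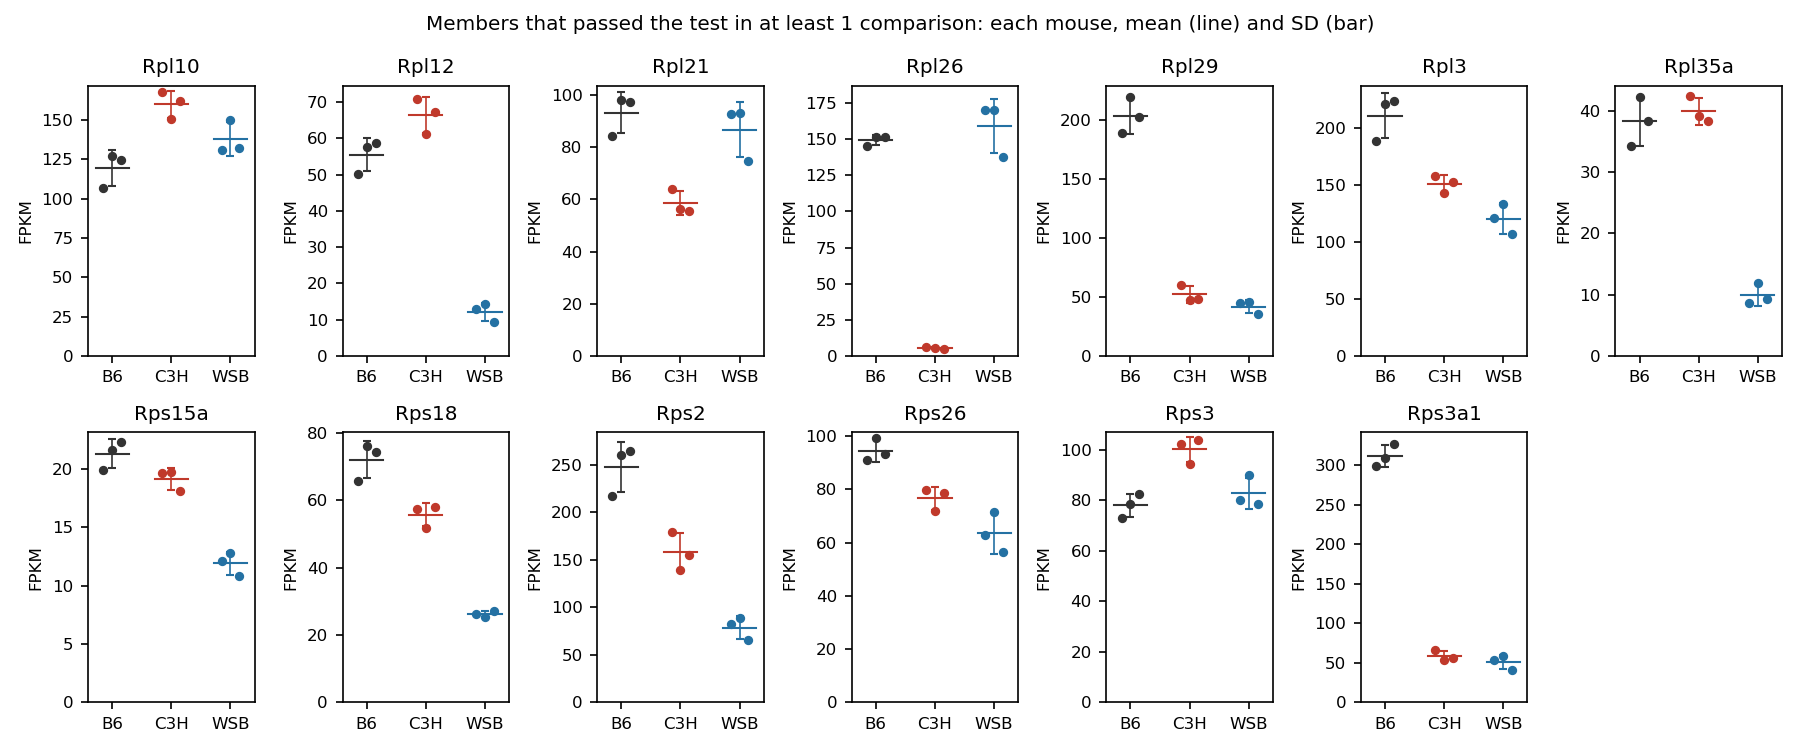
FPKM of 13 of the 14 ribosomal protein genes called in at least 1 comparison, with 1 point per mouse, a line at the strain mean and a bar of 1 SD (n = 3). Rpl12 and Rpl35a are low in WSB alone, Rpl26 and Rpl21 in C3H alone, and Rps3a1 and Rpl29 in both strains.

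In C3H, 8 of the 88 genes were called relative to B6 (9.09%, with 4.64% over the 20602 genes tested). Of these, 6 fell (6.82%, with 2.26% over all genes) and 2 rose (2.27%, with 2.38%). With the libraries rescaled to total reads the split was 8 lower and 6 higher, and over all 20605 genes tested it was 481 lower and 521 higher. Rpl26, at the rim of the exit tunnel, had the widest gap. It had 145, 152 and 151 FPKM in B6, 5.88, 5.22 and 4.71 in C3H, and 170, 170 and 137 in WSB, and the C3H level was 27.96-fold lower than that of B6 (-4.81, SE 0.09, adjusted p = 2.9e-07). Rps3a1 had 65.9, 54.1 and 55.9 FPKM in C3H (-2.41, SE 0.09, adjusted p = 1.1e-05), and Rpl29 had 60.5, 47.6 and 48.3 (-1.97, SE 0.11, adjusted p = 7.8e-05). These comparisons use the same B6 mice as those of WSB. All 3 genes lay far under the B6 range in each C3H mouse.

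Smaller falls in C3H were those of Rpl21, Rps2 and Rpl3. Rpl21 had 84.2, 98.2 and 97.4 FPKM in B6 and 64.0, 56.3 and 55.6 in C3H (-0.67, SE 0.09, adjusted p = 0.0078). Rps2 had 180, 139 and 155 FPKM in C3H (-0.65, SE 0.12, adjusted p = 0.028) and Rpl3 had 158, 143 and 153 (-0.48, SE 0.09, adjusted p = 0.031). The calls of Rps2 and Rpl3 were lost without B6 replicate 2, B6 replicate 3 or C3H replicate 3, and that of Rpl3 also without C3H replicate 1. The 2 genes that rose were Rps3, near the site where the mRNA enters, with 73.2, 78.6 and 82.5 FPKM in B6 and 102, 94.6 and 104 in C3H (0.36, SE 0.08, adjusted p = 0.045), and Rpl10, which joins the large subunit late in its maturation, with 107, 127 and 125 in B6 and 168, 151 and 162 in C3H (0.42, SE 0.09, adjusted p = 0.048). Both rises held in 1 of 6 analyses with a mouse left out, the one without C3H replicate 2. Of the 88 genes, 21 were called without C3H replicate 2, of which 15 were higher. Over all 20562 genes tested in that fit 2301 were called, against 956 with all mice. The count was 4 without B6 replicate 2, B6 replicate 3 or C3H replicate 3, where 504, 569 and 498 of all genes were called. It was 5 without C3H replicate 1, where 507 of all genes were called.

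Many small differences in C3H pointed upward. Of the 88 genes 69 lay above 0, with a median of 0.18, against a median of 0.00 over all genes tested. In 43 genes every C3H mouse lay above every B6 mouse (48.9%, with 14.9% over all genes), and in 9 every C3H mouse lay below (10.2%, with 14% over all genes). The medians were 0.16 in the large subunit, where 38 of 45 genes lay above 0, and 0.22 in the small subunit, where 24 of 31 did. Other measures moved along with this shift. The difference between C3H and B6 rose with GC content over 12989 genes (Spearman's rho = 0.48, across genes, which are not independent replicates), and the median GC content was 50.9% in the ribosomal protein genes and 50.02% in all. With GC and length trends removed, the median of the 88 genes was -0.01, and with the GC trend alone removed it was 0.15. Of 5 blood markers, 3 rose in C3H and 0 fell, their summed level being 632 to 1010 FPKM in C3H, against 217 to 254 in B6 and 249 to 329 in WSB, and none was at 0. The part of blood in the shift was not tested.

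Between WSB and C3H, 8 of 88 genes were called (9.09%, with 5.74% over the 20607 genes tested). WSB was lower for 6 (6.82%, with 3.13% over all genes) and higher for 2 (2.27%, with 2.61%). Rpl12 (-2.46, SE 0.15, adjusted p = 0.00018) and Rpl35a (-2.004, SE 0.13, adjusted p = 0.00022) were lower in WSB. In C3H, Rpl12 had 66.4 ± 4.91 FPKM (SD, n = 3), a mean above every B6 mouse, though it was not called relative to B6. Rpl35a had 39.9 ± 2.16 FPKM in C3H (SD, n = 3), close to its B6 level. Rps18 was lower in WSB (-1.08, SE 0.07, adjusted p = 0.00027), as were Rps2 (-1.01, SE 0.14, adjusted p = 0.0077) and Rps15a (-0.68, SE 0.09, adjusted p = 0.0055). Rpl26 (4.89, SE 0.12, adjusted p = 1.7e-06) and Rpl21 (0.56, SE 0.11, adjusted p = 0.028) were higher in WSB, the call of Rpl21 being lost without C3H replicate 1, C3H replicate 3, WSB replicate 1 or WSB replicate 2. Over the 88 genes the median was -0.21 and 10 lay above 0. In 36 every WSB mouse lay below every C3H mouse (40.9%, with 14.4% over all genes), and in 3 every WSB mouse lay above (3.41%, with 14.2%). Without C3H replicate 2, 13 of the 88 genes were called, and 2002 of all 20614 genes tested, against 1182 of all genes with every mouse. Rps3a1 and Rpl29, low in both strains, did not pass between them (-0.21, SE 0.14, and -0.32, SE 0.13).

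**Figure D3:**
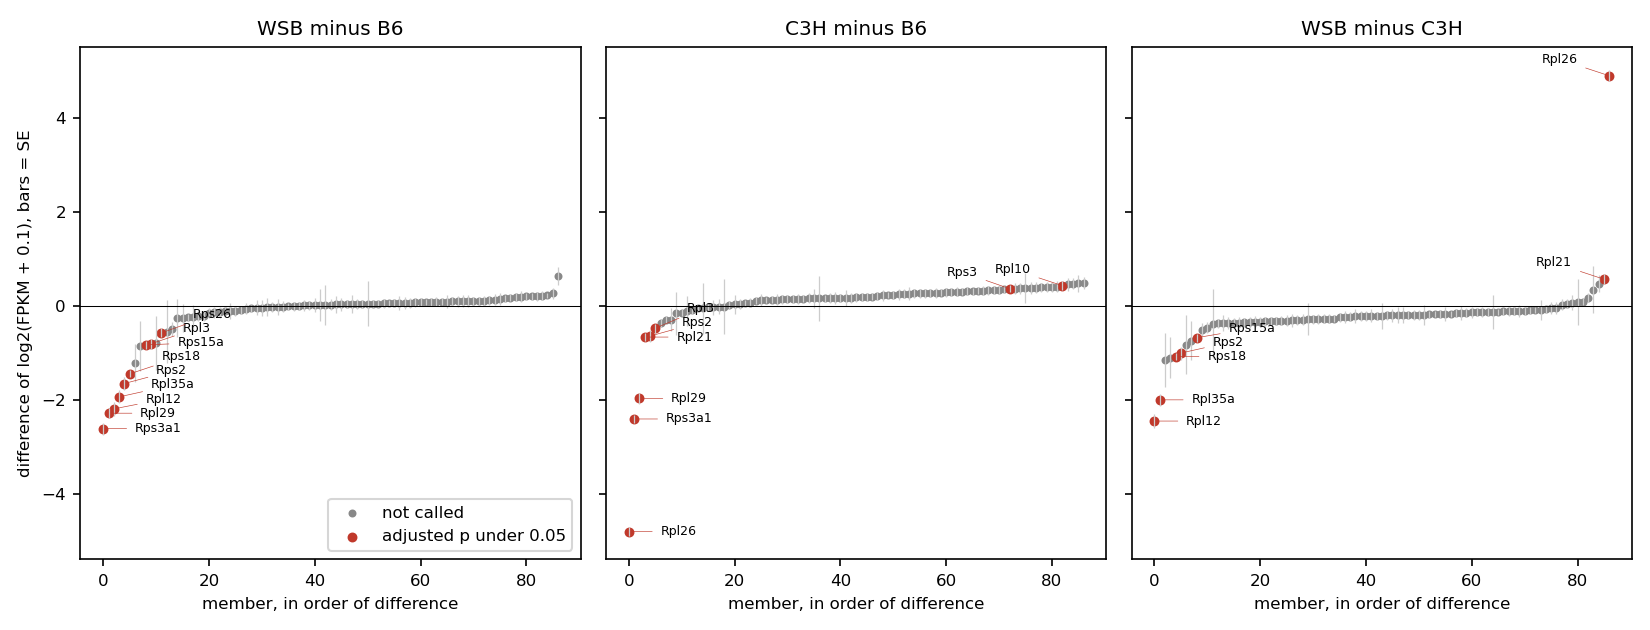
Difference of log2(FPKM + 0.1) for 87 of the 88 genes tested in each comparison, in increasing order, with bars of 1 SE and called genes in red with their names. A few genes lie far under 0 in each panel, and most of the remaining C3H minus B6 values lie just above 0.

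Near-identical annotated copies of the called genes were then examined. Transcripts of other genes that matched at least 90% of the bases over at least 50% of the coding sequence were found for 74 of the 76 subunit genes, with a median of 10 copies and up to 83 for Rpl7a. Of the 76 genes, 67 had a stretch of 150 bases that occurs unaltered in a transcript of another gene, and in 19 more than 50% of all such stretches did. Each copy was assigned to the gene it resembled most. At least 100 reads in a library lay on 29 copies of 22 genes, and 25 of the 29 were annotated as pseudogenes. The mean over the mice of a strain was highest in C3H for 18 of them, in WSB for 11 and in B6 for 0. Since a copy could be kept through a single strain in which it was high, these counts only describe the copies kept.

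Rpl26 had the widest gap among the called genes. It lies on chromosome 11 from 68901583 to 68906989 (GRCm38, plus strand), and the processed pseudogene Gm15772 lies on chromosome 5 from 3236431 to 3236868 (plus strand). The pseudogene had 7, 7 and 7 reads in B6, 6, 10 and 11 in WSB, and 2501, 2461 and 2760 in C3H, where Rpl26 itself had 158, 146 and 132. Rpl26 thus held 99.4% to 99.7% of the reads on itself and its copies in B6 and 4.54% to 5.90% in C3H. With copies added, the fall in C3H was -0.60 (adjusted p = 0.0039). The copy differs from the 435 bases of the Rpl26 coding sequence by 2 substitutions, C177T and T288C, with the base of the gene first and positions counted from 1 at the A of the start codon. A read within the coding sequence that covers neither position matches both loci of the reference alike. Of all stretches of 150 bases in the Rpl26 transcript, 8.75% occur unaltered in an annotated transcript of another gene. Sequence outside annotated transcripts was not searched. Bases 147 to 296 are shown with both differing bases in capitals.
Rpl26: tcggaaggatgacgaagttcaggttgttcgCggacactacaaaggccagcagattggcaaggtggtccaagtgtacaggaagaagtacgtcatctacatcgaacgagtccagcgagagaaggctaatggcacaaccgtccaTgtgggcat
Gm15772: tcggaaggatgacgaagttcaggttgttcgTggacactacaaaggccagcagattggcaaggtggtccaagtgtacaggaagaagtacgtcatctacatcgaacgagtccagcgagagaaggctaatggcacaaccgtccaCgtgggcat

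In Rps3a1 (chromosome 3 from 86137940 to 86142702, minus strand) the pseudogene Rps3a3 on chromosome 13 (108670603 to 108671397) had 0, 3 and 0 reads in B6, 2546, 2438 and 2485 in C3H and 1678, 1841 and 1746 in WSB. Rps3a2 on chromosome 14 (88123017 to 88123808) had 5, 9 and 3 reads in B6, 536, 716 and 867 in C3H and 350, 348 and 534 in WSB. Rps3a1 held at least 99.7% of the reads of the family in B6, but between 24.0% and 27.9% in C3H, and between 24.4% and 31.1% in WSB. With copies added the differences from B6 were -0.44 in C3H (adjusted p = 0.022) and -0.80 in WSB (adjusted p = 0.0013), and WSB was then also lower than C3H (-0.36, adjusted p = 0.036). Rps3a3 differs from the gene by 8 substitutions and Rps3a2 by 4, and they share T216C and T534C. Bases 186 to 245 hold the first of these, in capitals.
Rps3a1: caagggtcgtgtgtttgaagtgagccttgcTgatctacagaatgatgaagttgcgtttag
Rps3a3: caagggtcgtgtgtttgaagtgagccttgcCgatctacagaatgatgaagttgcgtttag

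Rpl12 (chromosome 2 from 32961559 to 32965345, plus strand) was low in WSB alone, and 2 pseudogenes had reads there. Gm11425 on chromosome 11 (83027500 to 83027997) had 1002, 1053 and 862 reads in WSB and at most 5 in any other mouse, and Gm9396 on chromosome 3 (130068412 to 130068978) had 585, 621 and 851 in WSB and at most 4 elsewhere. With copies added the difference between WSB and B6 was -0.53 (adjusted p = 0.016). Each copy differs from the coding sequence by 4 substitutions, and they share G162A, T225C and T361C. Bases 132 to 191 of the gene and of both copies are given with the base at position 162 in capitals.
Rpl12: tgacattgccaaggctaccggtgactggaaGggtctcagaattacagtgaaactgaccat
Gm11425: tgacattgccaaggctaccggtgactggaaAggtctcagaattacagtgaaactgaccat
Gm9396: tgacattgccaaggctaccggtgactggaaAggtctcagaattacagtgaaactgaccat

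Rps18 (chromosome 17 from 33951999 to 33956001, minus strand) has the copy Gm11361 on chromosome 13 (28257528 to 28258134), which is annotated as protein-coding. Gm11361 had 5, 17 and 11 reads in B6, 111, 113 and 105 in C3H, and 394, 506 and 424 in WSB. Rps18 lost more reads in WSB than Gm11361 gained, and its difference from B6 with copies added was -0.97 (adjusted p = 0.00041). The copy differs by T11A, A171C and A337C, and the first 60 bases of the coding sequence are shown with the first of these in capitals.
Rps18: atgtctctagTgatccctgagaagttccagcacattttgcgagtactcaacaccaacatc
Gm11361: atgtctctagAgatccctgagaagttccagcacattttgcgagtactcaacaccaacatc

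Rpl29 (chromosome 9 from 106429454 to 106431568, plus strand) kept most of its difference. Gm8210 on chromosome 1 (43189156 to 43189638) had 0, 1 and 0 reads in B6, 217, 192 and 228 in C3H, and 141, 127 and 195 in WSB. Gm13841 on chromosome 5 (115801677 to 115802159) had 323 reads in C3H replicate 3 and 321 in WSB replicate 3, against 65 to 87 in the other mice of these strains and 5 to 14 in B6. With all 59 assigned copies added, the differences were -1.49 in C3H (adjusted p = 0.00032) and -1.74 in WSB (adjusted p = 3.0e-05). Gm8210 and Gm13841 differ from Rpl29 by the same 3 substitutions, C72A, C300T and T423C. Bases 42 to 101 are shown with position 72 in capitals.
Rpl29: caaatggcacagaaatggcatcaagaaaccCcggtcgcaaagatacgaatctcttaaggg
Gm8210: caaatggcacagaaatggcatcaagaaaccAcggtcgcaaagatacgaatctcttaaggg

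Rps2 (chromosome 17 from 24718116 to 24721929, plus strand) was the gene whose direction turned, in C3H. Rps2-ps10 had 9545, 8160 and 10311 reads in C3H and at most 32 in the mice of B6 and WSB, while Rps2-ps13 had 4954, 6292 and 6370 in WSB, 35, 30 and 37 in C3H and at most 1 in B6. Rps2 itself had 7115, 9614 and 10326 reads in B6, 6116, 4941 and 5515 in C3H and 2501, 2812 and 2180 in WSB. Summed, Rps2 and its copies were higher in C3H than in B6 (0.79, adjusted p = 0.013) and near B6 in WSB (0.09, adjusted p = 0.69). Alone, it was lower in both.

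Of the 9 genes that fell in WSB relative to B6, 9 had at least 1 copy that rose in the same comparison, as did 8 of the 79 not called. In C3H this held for 5 of the 6 that fell, all but Rpl21, and for 16 of the 80 not called. Of all copies tested, 26 of 300 rose in WSB and 33 of 302 in C3H. Over all genes tested, 2.81% and 2.38% rose. Genes with more copies have more chances of such a copy, and the number of copies ran from 3 for Rps26 to 59 for Rpl29 among the genes that fell in WSB. The copies of Rpl35a gained few reads. They had 39, 59 and 64 reads in WSB and 19 to 29 in B6, while the gene fell from 2161, 3012 and 2883 reads to 503, 730 and 602, and the difference with copies added was -1.83 (adjusted p = 0.00033). With its 21 copies added, Rpl3-ps1 and Rpl3-ps2 among them, Rpl3 kept a fall of -0.57 in WSB (adjusted p = 0.023). It lost its call in C3H (-0.38, adjusted p = 0.069). Rps15a (-0.35, adjusted p = 0.12) and Rps26 (-0.25, adjusted p = 0.20) lost their calls in WSB, where Rps15a-ps7 had 517, 636 and 374 reads and Rps26-ps1 had 443, 479 and 411, against at most 9 in B6. Rps3, which rose in C3H, had no reads on copies. With copies added, 6 of the 88 genes were called in WSB relative to B6, all lower, beside 1199 of the 20446 genes tested. In C3H 7 of the 88 were called, 4 lower and 3 higher, beside 911 of the 20300 genes tested. The sequences of the C3H and WSB genomes were not used here, and the part of read placement in these differences was not tested.

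**Figure D4:**
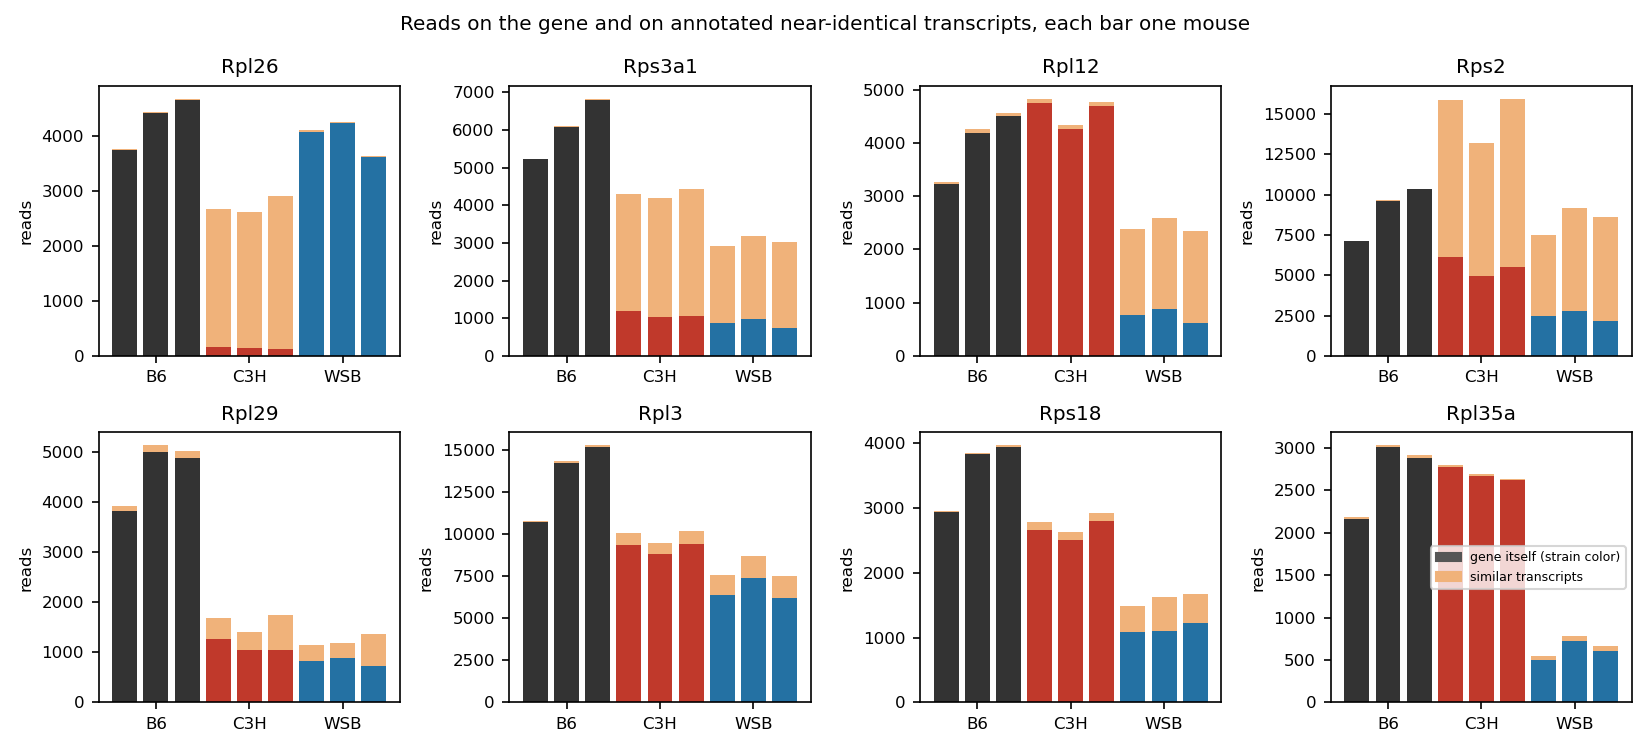
Reads on 8 ribosomal protein genes (strain color) and on their annotated near-identical transcripts (orange), 1 bar per mouse, on a linear axis from 0. In Rpl26, Rps3a1, Rpl12 and Rps2 the copies hold most of the reads in the strains where the gene is low, while in Rpl35a they hold almost none.

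Some copies gained reads although the gene did not pass the test. Gm8730, a pseudogene of the stalk protein Rplp0, had 455, 520 and 450 reads in WSB and at most 18 in any other mouse. Rps24-ps3 had 514, 547 and 395 reads in WSB and at most 10 elsewhere. Gm6472, a copy of Rps7, had at least 467 reads in each C3H and WSB mouse and at most 28 in B6, and Gm5905, a copy of Rps9, had at least 158 and at most 17. Gm10020, a copy of Rpl15, had 195, 171 and 176 reads in C3H and at most 3 elsewhere. Rplp0 had 152 ± 17.6 FPKM in B6, 170 ± 14.2 in C3H and 136 ± 6.91 in WSB (SD, n = 3), with a difference of -0.16 between WSB and B6 (SE 0.10, adjusted p = 0.44).

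The ribosomal protein genes in common use as PCR references differed in behavior. Rps18 fell in WSB, as above, and had 57.3, 51.8 and 58.0 FPKM in C3H (-0.37 relative to B6, SE 0.09, adjusted p = 0.057). Rpl13a had 10.7 ± 0.409, 11.9 ± 1.58 and 12 ± 0.825 FPKM in B6, C3H and WSB (SD, n = 3), and none of its differences passed the test. Rpl19 had 242 ± 16.7 FPKM in B6, 318 ± 29.5 in C3H and 276 ± 13.4 in WSB, with every B6 mouse under every mouse of C3H and WSB. Every C3H mouse lay above every B6 mouse in 48.9% of the 88 genes and 14.9% of all genes. For WSB these shares were 9.09% and 13%. Rpl32 had 147, 172 and 171 FPKM in B6, 222, 198 and 200 in C3H and 158, 186 and 149 in WSB. Neither Rpl19 (0.39 in C3H, SE 0.10, adjusted p = 0.075) nor Rpl32 (0.34, SE 0.09, adjusted p = 0.089) passed the test.

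Some genes were chosen for roles beyond the ribosome or in disease. Of these, Rpl10 passed as given above, while Rpl5, Rpl11, Rps19, Rps6, Rpsa and Rpl22 did not pass in any comparison. The choice is not a full list of such genes, and the called gene Rpl35a, also known from disease, was not part of it. Rpl5 and Rpl11, which bind the p53 regulator Mdm2 when ribosome assembly is disturbed, had 61.2 ± 3.50 and 81.2 ± 11.3 FPKM in B6, 66.5 ± 1.73 and 106 ± 11 in C3H, and 60.7 ± 3.63 and 86.0 ± 11.1 in WSB (SD, n = 3). Rps19, the gene most often mutated in Diamond-Blackfan anemia, had 34.0 ± 2.58, 42.6 ± 4.05 and 33.7 ± 5.10 FPKM in B6, C3H and WSB. Rps6, the substrate of S6 kinase, had 139 ± 14.3, 153 ± 6.91 and 142 ± 16.4 FPKM, and Rpsa, also known as the laminin receptor, had 150 ± 14.4, 198 ± 17.9 and 157 ± 13.7. Rpl22 had 38.0 ± 2.71, 41.4 ± 1.58 and 36.5 ± 0.736 FPKM. The C3H mice lay above all B6 mice for Rpl5, Rpl11, Rps19 and Rpsa, as in 48.9% of the 88 genes and 14.9% of all genes. The ranges of B6 and C3H overlapped for Rps6 and Rpl22.

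Among the subunit genes, those with the shortest coding sequences varied most between the mice of WSB and C3H. Rps29 had 181, 247 and 98.9 FPKM in WSB, 269, 197 and 153 in C3H and 168, 209 and 218 in B6. Rps28 had 40.05, 54.2 and 25.1 FPKM in WSB and Rpl38 had 255, 316 and 180. WSB replicate 2 was the highest and WSB replicate 3 the lowest in each of them. Over the 9 subunit genes with at least 10 FPKM and a coding sequence under 300 bases, the highest WSB mouse was a median of 1.55-fold above the lowest, against 1.28-fold in C3H and 1.19-fold in B6. Over the 22 genes of 600 bases or more these values were 1.15, 1.11 and 1.16. Across the 74 genes with at least 10 FPKM, the ratio of WSB replicate 2 to replicate 3 fell with coding length (Spearman's rho = -0.58, a description across genes measured in the same 2 libraries). The median coefficient of variation of the 74 genes was 7.58% in B6, 7.98% in C3H and 11.2% in WSB, and over all 4899 genes at this level it was 7.16%, 8.24% and 7.16%.

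**Figure D5:**
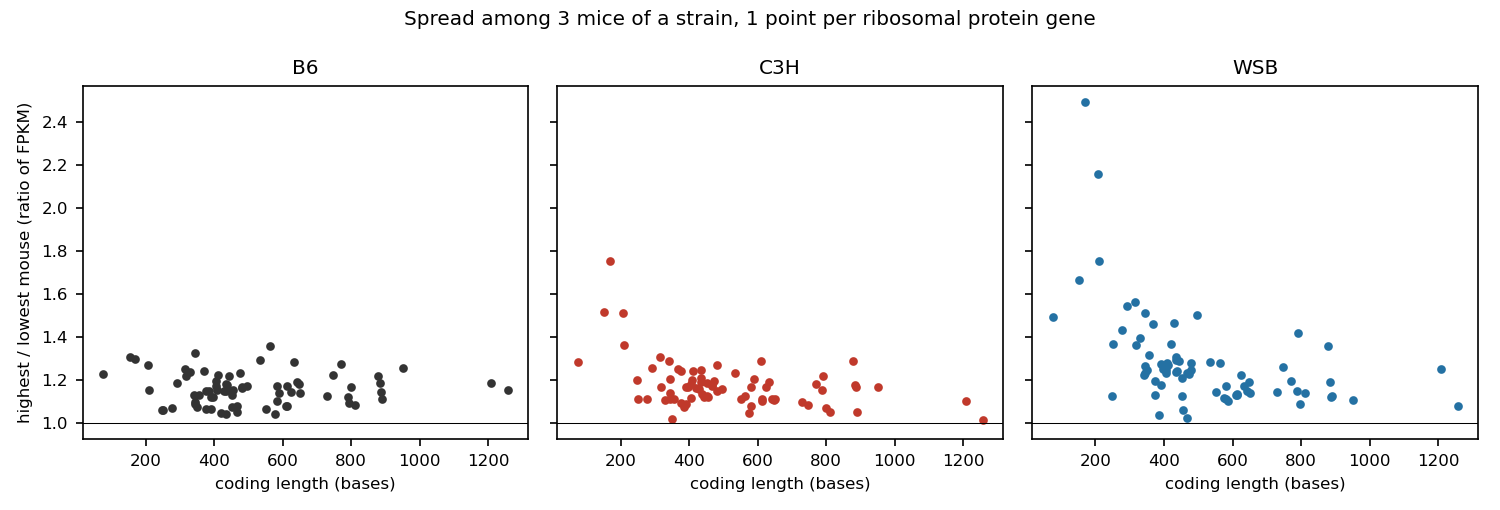
Ratio of the highest to the lowest mouse of a strain against the coding length in bases, 1 point per subunit gene that averaged 10 FPKM or more. The shortest genes reach ratios above 2 in WSB, where Rps29 runs from 98.9 to 247 FPKM, while B6 shows no such rise.

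Other genes of the translation machinery are given beside the 5.9% of all genes called in WSB and the 4.64% called in C3H relative to B6. Of 19 translation mRNAs with an oligopyrimidine start that lie outside the group, 1 fell and 0 rose in each comparison with B6 (5.26%). The medians of these 19 were 0.04 in WSB and 0.14 in C3H. Of 17 genes of S6 kinases and mTORC1 control, 0 passed in WSB and 1 rose in C3H (5.88%), Eif4ebp1, a repressor of cap-dependent translation (0.82, SE 0.15, adjusted p = 0.023). Of 34 ribosome biogenesis genes, 3 were called in WSB (8.82%) and 4 in C3H (11.8%). Snu13 (0.43) and Taf1b (0.51) rose and Nvl (-1.04) fell in WSB relative to B6, and Nop10 (0.61) rose while Polr1a (-0.58), Polr1b (-0.51) and Polr1d (-0.60), subunits of RNA polymerase I, fell in C3H. Of 18 genes of translation initiation, 2 were called in WSB (11.1%) and 1 in C3H (5.56%). Eif2b5 rose in WSB (0.45) and Eif4g3 fell in WSB (-0.39) and in C3H (-0.45). Of 8 oligodendrocyte markers, 1 fell and 0 rose in WSB (12.5%), with a summed level of 439 to 630 FPKM in WSB and 808 to 1012 in B6, and their part in the differences of the ribosomal protein genes was not tested.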

How the data were processed

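Cortex RNA of 9 mice was sequenced with paired-end reads. The authors trimmed adapters with Cutadapt, and per the labels the reads were aligned with STAR, counted per gene with HTSeq and tested with DESeq2. Versions and genome build are not given in the sources used here. The values deposited by the authors are FPKM per gene and mouse. Multiplied by gene length they were whole multiples of 1 step per library (100% of values, within 0.001), which gave the reads per gene. Coordinates of 89 of the 93 genes equalled those of GENCODE M21 (GRCm38), which also supplied the transcripts.

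Tests used limma 3.58.1 in R 4.3.3 (eBayes with a trend, two-sided, threshold 0.05) over all genes that averaged 0.1 FPKM or more, on log2(FPKM + 0.1), in place of the count test, since the values are FPKM. The test was checked on simulated data. Copies were searched with blastn 2.17.0, and figures were drawn with matplotlib 3.10.9. No 2 libraries of a strain agreed within sampling noise (chi-square per gene of 7.29 to 22.0). Within C3H the value was 20.7 and 22.0 for the pairs that include replicate 2, and 7.55 for replicates 1 and 3. Exons shared by overlapping genes, GC content and near-identical copies can each change an FPKM value.

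The genes and lists were chosen with earlier results of these data known. Full values were given by rule for called genes, the 5 highest and 5 lowest, paralogs, PCR references and Rpl5, Rpl11, Rps19, Rps6, Rpl10, Rpsa and Rpl22. Rps24, Rps28, Rps29, Rpl38, genes given with 1 value and the copies were added with their values in view. Values of 1 called gene of the group and of 1 called gene of another list are not reported here. The alternatives were pseudocounts of 1 and 0.01, no filter or a filter of 1 FPKM, other scalings, all 9 libraries in 1 fit, no trend, voom weights, a replicate block, protein-coding genes only, GC and length trends removed, pseudogenes of the same name added, and leaving out each mouse. Adding similar transcripts, with or without GC trends removed, was chosen after seeing the data.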

Additional observations from a re-analysis of the deposited data

Results flagged for a closer look

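The WSB and C3H effects relative to B6 differed for 8 ribosomal protein genes, 7 of them given here, by the direct test of WSB against C3H (limma, adjusted p under 0.05). WSB was lower for Rpl12 (-2.46), Rpl35a (-2.004), Rps18 (-1.08), Rps2 (-1.01) and Rps15a (-0.68), and higher for Rpl26 (4.89) and Rpl21 (0.56), as log2 differences. The 8 genes are 9.09% of the 88 tested, while 5.74% of all 20607 genes tested were called. The share lower in WSB was 6.82%, with 3.13% over all genes, and the share higher was 2.27%, with 2.61%. Groups of 3 mice were not screened for single outlying samples.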

How the results depend on the processing

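Of the 25 called differences, 14 passed the threshold in each of the 22 alternatives. The count of called genes in WSB relative to B6 (9) was 14 with GC and length trends removed, and 8 to 11 with a mouse left out. Over all genes tested the count was 1224, and in these fits 1691 and 651 to 825. The count in C3H relative to B6 (8) was 15 with all 9 libraries in 1 fit, and 4 without a trend and also with no filter. It was 13 with GC and length trends removed, and 14 with similar transcripts added and the GC trend removed. When rescaled to total reads it was 14, with voom weights 18, and with a mouse left out 4 to 21. Over all genes tested the count was 956. In these fits, in the same order, it was 1390, 699, 766, 1324, 1133, 1002, 1488, and 498 to 2301. The count between WSB and C3H (8) was 14 with voom weights and 6 to 13 with a mouse left out. Over all genes tested the count was 1182, and in these fits 1757 and 475 to 2002. With pseudogenes of its name added, Rps2 turned from lower to higher in C3H relative to B6 (0.78) and lay near B6 in WSB (0.091). The values in C3H and WSB were 0.79 and 0.092 with similar transcripts added. With these and the GC trend removed they were 0.64 and 0.045. The replicate numbers did not pair the mice (correlations of deviations from -0.16 to 0.04). With a replicate block the counts were 9 in WSB and 3 in C3H relative to B6, and 7 between WSB and C3H. Over all genes tested they were then 754, 480 and 531. The median of the 88 genes in WSB relative to B6 moved from 0.02 to -0.17 with GC and length trends removed. The cause of these changes was not tested.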
